A study of Mus musculus with 3 samples.

Results

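The genes described here are 10 targets of the transcription factor p53: Cdkn1a, Ccng1, Gadd45a, Phlda3, Trp53inp1, Zmat3, Mdm2, Bax, Bbc3 and Pmaip1. They were chosen by name, because busulfan is an alkylating drug that damages DNA, but with earlier results of these data known. They are 10 of 13891 genes in the table of 12653 cells. p53 is held at a low level by its ubiquitin ligase Mdm2 and is stabilized when DNA is damaged. It then binds a sequence of 2 half-sites near its target genes and raises the transcription of cell cycle inhibitors, of pro-apoptotic proteins and of Mdm2 itself. In the small intestine the crypt, where stem cells and dividing progenitors lie, is known for its p53 response to DNA damage, while villus cells have left the cell cycle.

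The cells came from the small intestine of male ICR mice, an outbred strain, which were 3 weeks old at the injection. In AOS 0 the mice received the water vehicle without busulfan, in B + A 0 a single busulfan injection of 40 mg/kg followed by daily vehicle, and in B + A 10 the same injection followed by daily alginate oligosaccharides (AOS) at 10 mg/kg. The gavage ran for 2 weeks, so the values do not show the first days after the dose. Cells of 6 mice were combined in each group, Peyer's patches had been removed, and each group is 1 droplet library of 3′ ends. There was therefore no replicate check and no test between groups. All intervals below are for counting error alone and say nothing of how mice or lanes vary. The source label of the B + A 0 library names AOS 10 and that of the B + A 10 library names B + A 0, and the groups here follow the titles, descriptions and treatment labels.

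Where 3 values stand in a row, they are those of the control, the busulfan and the busulfan plus AOS library, in this order. The libraries held 4106, 3195 and 5352 cells, with medians of 7371, 6407 and 3505 UMIs (unique molecular identifiers, counts of single RNA molecules) per cell. Defensins, the Paneth cell antimicrobial peptides, took 4.55%, 10.5% and 6.24% of all UMIs, and Paneth cells were 2.44%, 5.35% and 2.99% of the cells. Over genes with at least 100 UMIs in both libraries of a comparison together, the median log2 ratio of B + A 0 to AOS 0 was −0.18 (10432 genes), and it was 0.09 for B + A 10 to B + A 0 (10130 genes) and −0.10 for B + A 10 to AOS 0 (10413 genes). The part of the defensin share in these shifts was not tested. Ratios of members are given as measured, and for some of them also against that median. Of the barcodes, 82 occurred in more than 1 library, in 164 cells.

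Ccng1, and Cdkn1a at its upstream start, carried near-consensus p53 sites just before the transcription start. RefSeq windows of GRCm38.p6, from 250 bases before to 50 bases after a transcription start, were found for 7 of the 10 genes, and not for Trp53inp1, Pmaip1 and Zmat3. Each window was searched for the p53 consensus, 2 half-sites of 10 letters with a spacer of 0 to 10 bases, keeping the fixed C and G of each half-site. The consensus reads the same on both strands, so 1 pass covered both. The best matches are shown because they mark where the known regulator of these genes could bind next to the start, with the half-sites in capitals and the spacer in lower case.
Cdkn1a, chr17:29090928-29090947, + strand: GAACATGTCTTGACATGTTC
Ccng1, chr11:40755462-40755481, − strand: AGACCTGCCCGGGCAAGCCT
Bax, chr7:45467079-45467099, − strand: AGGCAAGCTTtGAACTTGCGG
Gadd45a, chr6:67037438-67037463, − strand: GGACCTGGTTggctgaGGGCTAGCCC
Bbc3, chr7:16309486-16309505, + strand: CTGCAAGCCCCGACTTGTCC

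The Cdkn1a site began 51 bases before the upstream start and differed from the consensus at 1 position. The Ccng1 site began 195 bases before its start and also differed at 1. Among 32841 windows of the same length, 0.499% held a site as close. The Bax and Gadd45a sites had 2 mismatches, as had 3.34% of windows or closer ones, and the Bbc3 site had 3, which 13.1% of windows reached. The best site was 4 mismatches away in Mdm2 and 5 in Phlda3, distances that 35.7% and 63.6% of windows reached. In the other Cdkn1a window, at a start further downstream, the best site was also 5 mismatches away. The other Bbc3 windows had best sites with 3 and 6 mismatches. A match describes letters and not binding, and known p53 sites outside these windows were not searched.

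The cells of the crypt and villus were told apart by marker genes, and names of classes mean cells that are like the type in these markers. Crypt base cells, led by Olfm4, Slc12a2 and Lgr5, numbered 178, 141 and 263. Cycling cells in S phase were led by Hells, Uhrf1 and Rrm2, with the hemoglobin genes Hba-a1 and Hbb-b1 also among their leading genes, and cycling cells in G2 and mitosis by Top2a, Cdc20 and Ube2c. Enterocytes, led by Fabp1, Apoa1 and Sis, numbered 1093, 809 and 1675, goblet cells, led by Agr2, Clca1 and Muc2, 544, 526 and 763, and Paneth cells, led by defensins, 100, 171 and 160. In each library every fixed marker of these classes was higher in its own class than in the other named cells, 10 of 10 in the crypt base, 13 of 13 in S phase, 12 of 12 in G2 and mitosis, 15 of 15 in enterocytes, 11 of 11 in goblet cells and 13 of 13 in Paneth cells. Early enterocytes, led by Gsdmc2 and Gsdmc4, passed with 7 of 8.

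As measured, the p53 targets were not higher as a group after busulfan. The 10 genes together gave 397 UMIs per 1000000, 318 and 354. Their summed level was lower in B + A 0 than in AOS 0, with a log2 ratio of −0.32 (95% interval −0.36 to −0.28), or −0.14 against the median of all genes. B + A 10 lay between the other libraries, with log2 ratios of 0.15 (0.11 to 0.20) to B + A 0 and −0.17 (−0.21 to −0.13) to AOS 0. Against the medians of all genes these were 0.07 and −0.07. Cdkn1a and Bax held most of these UMIs, and the sum of the 8 other genes was 116, 99.6 and 115 per 1000000. Without that pair the log2 ratio of B + A 0 to AOS 0 was −0.22 (−0.30 to −0.15), or −0.04 against the median of all genes. That of B + A 10 to B + A 0 was 0.21 (0.13 to 0.29), or 0.12 against the median. That of B + A 10 to AOS 0 was −0.01 (−0.09 to 0.06), or 0.08 against the median, so its sign depends on the scaling. The comparisons share libraries, so these ratios are not independent of each other.

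Of the 10 genes, 9 had at least 100 UMIs over both libraries and were read against a fold of 1.5. In B + A 0 against AOS 0, 0 were higher and 1 was lower (Bbc3), while 1.23% of 10432 genes were higher and 2.83% lower. In B + A 10 against B + A 0, 2 were higher (Pmaip1 and Zmat3) and 0 lower, beside 2.23% and 0.819% of 10130 genes. In B + A 10 against AOS 0, 2 were higher, again Pmaip1 and Zmat3, and Bbc3 was lower, beside 3.29% and 3.79% of 10413 genes. Phlda3, with 47 UMIs in all, did not reach the minimum in any comparison. The median log2 ratio of the 9 genes was −0.24 for B + A 0 to AOS 0, 0.23 for B + A 10 to B + A 0 and −0.22 for B + A 10 to AOS 0. For B + A 0 to AOS 0, 8 of the 9 lay below 0, and so did 81.6% of all genes tested.

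**Figure D1:**
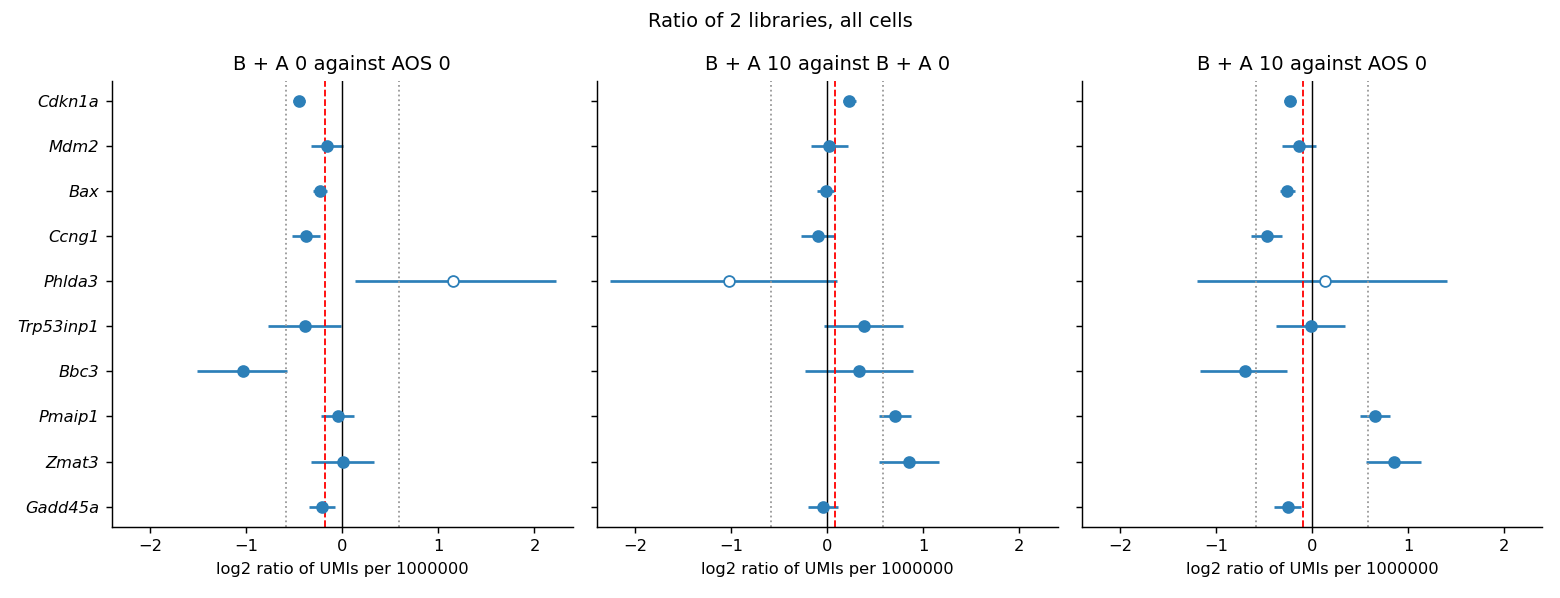
Log2 ratios of each p53 target between libraries over all cells, with exact 95% counting intervals as bars, the all-gene median as a dashed line and open symbols for ratios resting on fewer than 100 UMIs. Bbc3 and Cdkn1a sat lowest among the genes with enough UMIs in B + A 0 against AOS 0, at −1.03 and −0.46, and Pmaip1 and Zmat3 sat highest in B + A 10 against B + A 0, at 0.71 and 0.85.

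**Figure D2:**
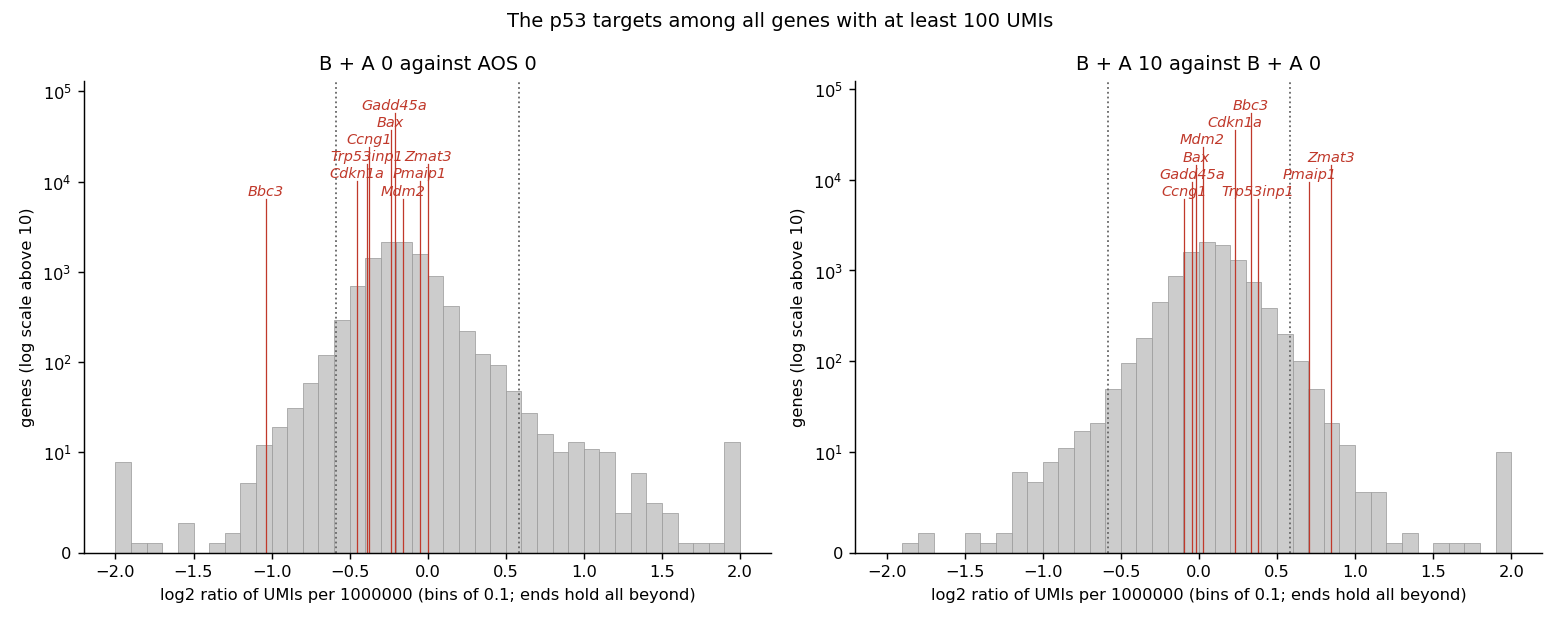
Number of genes with at least 100 UMIs by log2 ratio, in bins of 0.1 and on a scale that is logarithmic above 10 genes, for B + A 0 against AOS 0 and B + A 10 against B + A 0, with the 9 p53 targets as red lines and the fold of 1.5 as dotted lines. In B + A 0 against AOS 0, 0.297% of genes had a ratio below that of Bbc3 and 7.75% below that of Cdkn1a, while Mdm2, Bax and Gadd45a sat in the body of the distribution.

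Among the growth arrest genes, Cdkn1a was the most detected and was lower in both busulfan libraries. Cdkn1a, on chromosome 17, encodes p21, the inhibitor of cyclin-dependent kinases through which p53 stops the cell cycle, and carries the site shown first above. Its level was 168 UMIs per 1000000 (164 to 173), 123 (119 to 127) and 144 (139 to 149). The intervals of the 3 libraries did not overlap, with AOS 0 highest and B + A 0 lowest. The log2 ratio of B + A 0 to AOS 0 was −0.46 (−0.52 to −0.39), which is −0.28 against the median of all genes, and 0.23 (0.16 to 0.30) for B + A 10 to B + A 0. When the class mix of AOS 0 was imposed on each library, these ratios became −0.33 and 0.08. For B + A 10 to AOS 0, Cdkn1a was at −0.13 against the median of all genes, and 31.0% of genes had a lower ratio. Cells with at least 1 Cdkn1a UMI were 56.6%, 50.02% and 38.5%, an order that follows the depth of the libraries, and after thinning every cell to 1000 UMIs they were 17.2%, 13.5% and 15.5%, the order of the levels.

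Ccng1, the cyclin G1 gene, whose product feeds back on Mdm2, was also lower in both busulfan libraries. Its level was 29.8 UMIs per 1000000, 23.0 and 21.5, and the interval of AOS 0 (28.0 to 31.7) lay above those of the others. The log2 ratio of B + A 10 to AOS 0 was −0.47 (−0.63 to −0.32) and that of B + A 0 to AOS 0 was −0.38 (−0.52 to −0.23). Against the medians of all genes these were −0.37 and −0.20, and 7.49% and 14.2% of genes had lower ratios. Gadd45a, a stress gene whose protein restrains growth and aids DNA repair, was at 31.9, 27.6 and 26.8, and its ratio of B + A 0 to AOS 0, −0.21 (−0.35 to −0.08), was −0.03 against the median of all genes.

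The other genes of growth control were sparse. Trp53inp1, a stress protein that binds p53, had 167, 94 and 108 UMIs, or 4.74, 3.61 and 4.70 per 1000000, and its log2 ratio of B + A 0 to AOS 0 was −0.39 (−0.77 to −0.02). Phlda3, which restrains the growth kinase Akt, had 14, 23 and 10 UMIs. It was higher in B + A 0 by those counts, with a log2 ratio of 1.15 whose interval of 0.13 to 2.22 shows how few molecules it rests on, and 3 of the 23 UMIs were in 1 cell. Zmat3, which encodes an RNA-binding zinc finger protein, was at 5.33 in AOS 0 and 5.34 in B + A 0, and at 9.61 (8.38 to 10.96) in B + A 10. Its log2 ratio of B + A 10 to B + A 0 was 0.85 (0.54 to 1.16), above that of 99.6% of all genes, on 221 and 139 UMIs. Of genes with 200 to 400 UMIs over both libraries, 2.67% were at least 1.5-fold higher in that comparison.

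Mdm2 did not differ between the libraries beyond counting error. Its protein is the ligase that degrades p53, and the gene is a p53 target, which closes the feedback loop. The level was 20.1 UMIs per 1000000, 18.0 and 18.3, and the 3 intervals overlapped. The log2 ratio of B + A 0 to AOS 0 was −0.16 (−0.33 to 0.01), or 0.02 against the median of all genes. Trp53, which encodes p53 itself, was at 62.8, 56.1 and 54.3. Its ratio of B + A 0 to AOS 0 was −0.16 (−0.26 to −0.07), beside a median of −0.18 over all genes. Mdm4, the partner of Mdm2 that holds p53 inactive, was at 24.4, 23.8 and 24.5. An mRNA level says nothing of p53 protein, which is set by its breakdown.

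The 3 genes of apoptosis each took a course of their own. Bax, whose protein opens the outer mitochondrial membrane, was at 113, 95.6 and 94.4 UMIs per 1000000. AOS 0 was higher than both others, and the ratio of B + A 0 to AOS 0, −0.24 (−0.31 to −0.17), was −0.06 against the median of all genes.

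Bbc3, which encodes PUMA, the BH3-only protein that frees Bax and its relatives, was lower in both busulfan libraries. It had 147, 53 and 59 UMIs, or 4.17 (3.52 to 4.90), 2.03 (1.52 to 2.66) and 2.56 (1.95 to 3.31) per 1000000, so the interval of AOS 0 did not overlap with the others. The log2 ratio was −1.03 (−1.52 to −0.57) for B + A 0 to AOS 0 and −0.70 (−1.16 to −0.26) for B + A 10 to AOS 0. Over B + A 0 and AOS 0 it rests on exactly 200 UMIs, and of genes with 200 to 400 UMIs 5.29% were at least 1.5-fold lower. At most 3 Bbc3 UMIs fell in 1 cell, so no few cells carried the level.

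Pmaip1, which encodes NOXA, another BH3-only protein, was, with Zmat3, 1 of the 2 members that were at least 1.5-fold higher in B + A 10 than in both other libraries. Its level was 19.97 UMIs per 1000000 (18.5 to 21.5), 19.3 (17.6 to 21.04) and 31.5 (29.2 to 33.9). The first 2 libraries overlapped and B + A 10 stood above both, with log2 ratios of 0.71 (0.54 to 0.87) to B + A 0 and 0.66 (0.50 to 0.81) to AOS 0. Its ratio to B + A 0 was above that of 98.96% of genes. With the class mix of AOS 0 imposed it became 0.54, which is below 1.5-fold. Enterocytes, where its level was highest among the classes named by markers, were 26.6%, 25.3% and 31.3% of the cells, and their part in that shift was not tested. B + A 10 was the shallowest library, and after thinning all cells to 1000 UMIs the ratio was 0.68.

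**Figure D3:**
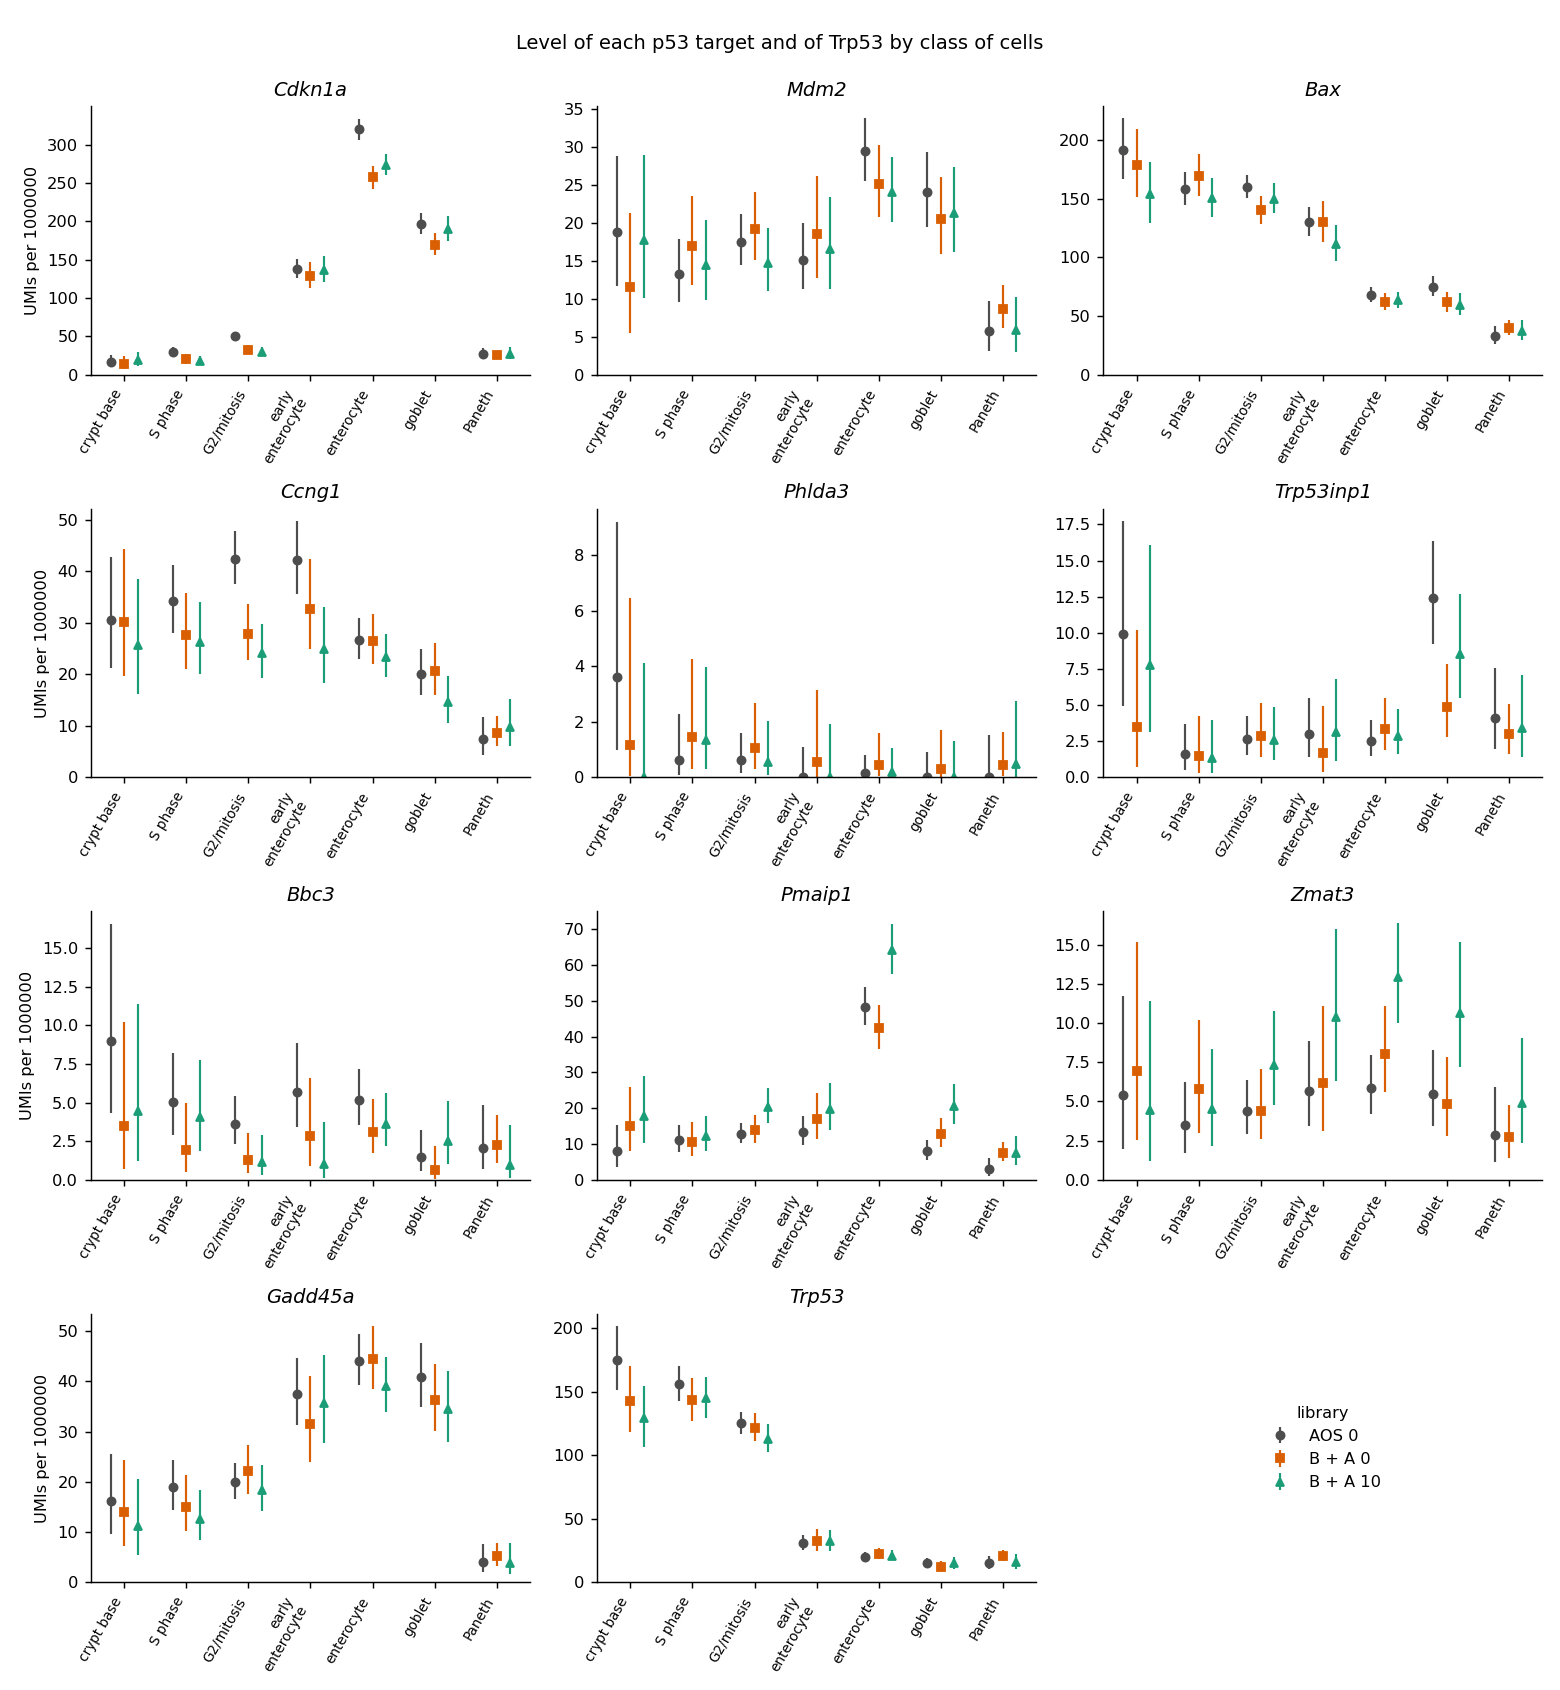
Level of each p53 target and of Trp53, in UMIs per 1000000 of the class, in 7 classes of cells, with 1 point per library, exact 95% Poisson intervals as bars and an own scale for each gene. In AOS 0 Cdkn1a was at 16.2 in the crypt base and 320 in enterocytes, while Bax was at 192 and 68.1.

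Levels of Cdkn1a and Bax differed more between crypt and villus classes than between libraries, and in opposite directions. Cdkn1a was low in the crypt base, at 16.2 (9.59 to 25.6), 13.9 (7.20 to 24.4) and 18.9 (11.03 to 30.3) UMIs per 1000000, and was 138, 129 and 137 in early enterocytes and 320, 257 and 274 in enterocytes. Enterocytes were 19.7, 18.4 and 14.5 times the crypt base. S phase cells, at 29.7, 19.9 and 18.1, lay near the crypt base, with overlapping intervals in both busulfan libraries. Paneth cells were at 27.6, 25.5 and 27.5. The log2 ratio of crypt base to Paneth cells was −0.77 (−1.61 to −0.004), −0.87 (−1.87 to −0.01) and −0.54 (−1.42 to 0.27). Paneth markers took 630191, 595492 and 610517 of each 1000000 UMIs in Paneth cells, which lowers the level of every other gene there. Goblet cells at 197, 170 and 190 lay below enterocytes. A cluster led by the ileal bile acid genes Fabp6 and Slc10a2, looked at after its values were seen, was higher still at 442, 323 and 363.

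The lowest Cdkn1a levels could not be told from free RNA in the droplets. Apoa1, an apolipoprotein gene of enterocytes, served as a gauge, and its crypt base level was 4.08%, 7.97% and 8.40% of its enterocyte level. For Cdkn1a the same quantity was 5.06%, 5.42% and 6.92%. In G2 and mitosis it was 15.7%, 12.7% and 10.8% for Cdkn1a and 2.59%, 6.65% and 7.10% for Apoa1. The margin over the gauge was thus widest in AOS 0. Goblet cells were at 61.6%, 66.0% and 69.3% of the enterocyte level for Cdkn1a, but at 3.71%, 9.22% and 9.84% for Apoa1. Free Cdkn1a RNA can therefore come from more classes than the gauge covers, and the margin may be smaller than these values show.

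Gadd45a followed Cdkn1a over the classes. It was at 16.2, 13.9 and 11.1 UMIs per 1000000 in the crypt base, 44.2, 44.4 and 39.1 in enterocytes and 4.12, 5.25 and 3.93 in Paneth cells. It was above the enterocyte level in enteroendocrine cells, at 219, 85.7 and 59.6. Pmaip1 was at 48.3, 42.4 and 64.2 in enterocytes, against 8.09, 15.1 and 17.8 in the crypt base. Mdm2 ranged less, with 29.5, 25.2 and 24.1 in enterocytes, 16.4, 17.6 and 15.1 in crypt base and cycling cells together, and 5.77, 8.67 and 5.89 in Paneth cells, where defensins take much of the total.

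Bax was higher in the crypt than in enterocytes. Its level was 192, 179 and 154 UMIs per 1000000 in the crypt base, 159, 169 and 150 in S phase, 160, 140 and 150 in G2 and mitosis, 130, 130 and 112 in early enterocytes, and 68.1, 62.0 and 63.4 in enterocytes. Trp53 had the same course, from 175, 143 and 129 in the crypt base to 20.1, 22.5 and 21.1 in enterocytes. Across 36 points, 12 sets of cells in 3 libraries, Pearson's r of log2 levels was 0.81 for Bax and Trp53, 0.85 for Cdkn1a and Gadd45a and −0.52 for Cdkn1a and Trp53, while Bax had an r of −0.09 with Cdkn1a, 0.30 with Gadd45a, 0.24 with Mdm2 and −0.29 with Pmaip1. The points share libraries and depth, so these values are a description without a test. Over the same points and 9295 genes, the patterns most like Cdkn1a were those of Smim22 (r = 0.92), Sdcbp2 (0.91) and Abca7 (0.91), those most like Bax were Polr2c (0.97), Eif3k (0.96) and Btf3 (0.96), and those most like Gadd45a were Atp6v0b (0.89), Abca7 (0.88) and Serinc1 (0.87).

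In the crypt, none of the p53 targets with enough UMIs was at least 1.5-fold higher in either busulfan library. With so few genes, the shares of all genes given below would also leave few or none. Crypt base and cycling cells were pooled after the values were seen, giving 1101, 807 and 1334 cells, and 6 members had enough UMIs there. In B + A 0 against AOS 0, 0 of the 6 were higher, beside 2.09% of 8598 genes, and Cdkn1a was lower, beside 1.84%. In B + A 10 against AOS 0, 0 were higher, beside 3.29%, and Cdkn1a and Ccng1 were lower, beside 4.04%. In B + A 10 against B + A 0, none passed in either direction, beside 1.09% of 7992 genes higher and 0.938% lower.

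Among crypt cells, the interval of the Cdkn1a ratio of B + A 0 to AOS 0 lay below 0 in both cycling classes. The level was at 40.5 UMIs per 1000000 (36.7 to 44.5), 26.4 (22.7 to 30.6) and 24.3 (20.7 to 28.3) over the crypt cells together, with a log2 ratio of −0.61 (−0.87 to −0.36) for B + A 0 to AOS 0. In G2 and mitosis it was 50.1, 32.7 and 29.4, with ratios of −0.61 (−0.92 to −0.31) and −0.77 (−1.10 to −0.44) to AOS 0. That class joins 2 clusters. The one led by Cdc20 and Cenpa, which held 62.5%, 52.7% and 61.0% of the class, had Cdkn1a at 78.4, 52.7 and 45.8, and the one led by Top2a with high Olfm4 had it at 10.5, 13.7 and 7.86. AOS 0 was thus higher within the first cluster. Within the second, the interval of each library overlapped with the others. Cdkn1a there was 3.29%, 5.33% and 2.87% of its enterocyte level, beside 2.23%, 6.33% and 6.54% for the gauge Apoa1. It lay below the gauge in both busulfan libraries, so a difference between libraries could not be read in that cluster. In S phase Cdkn1a was 9.29%, 7.74% and 6.62% of its enterocyte level, beside 2.63%, 6.33% and 7.60% for Apoa1. S phase thus lay near the gauge in B + A 0 and below it in B + A 10. The part of free RNA in the S phase ratio was not tested.

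Ccng1 was also lower in G2 and mitosis in both busulfan libraries. In G2 and mitosis it was at 42.4, 27.8 and 24.1 UMIs per 1000000, with log2 ratios of −0.61 (−0.94 to −0.28) and −0.82 (−1.19 to −0.46) to AOS 0. Early enterocytes were close to this, with levels of 42.3, 32.7 and 24.9 and ratios of −0.37 (−0.84 to 0.08) and −0.76 (−1.27 to −0.28). In enterocytes Ccng1 was at 26.7, 26.5 and 23.4, and the intervals overlapped.

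Bbc3 was too sparse to be placed in single classes. It had 49, 12 and 17 UMIs over the crypt cells together and was lower in B + A 0 in 6 of 7 classes, each on at most 35 UMIs per library. Bax in the crypt cells together was at 163, 154 and 151, with a ratio of −0.08 (−0.19 to 0.03) for B + A 0 to AOS 0, and Mdm2 had a ratio of 0.10 (−0.25 to 0.44). Phlda3 had 10, 8 and 5 UMIs there.

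Few crypt cells carried several member UMIs. After thinning to 1000 UMIs per cell, 44 of 1101 cells in AOS 0 had at least 2 UMIs of the 10 genes (3.996%, exact binomial 95% interval 2.92% to 5.33%), 20 of 807 in B + A 0 (2.48%, 1.52% to 3.80%) and 53 of 1334 in B + A 10 (3.97%, 2.99% to 5.16%). At least 3 UMIs were found in 6, 1 and 5 cells. The intervals overlapped, so a difference in the share of such cells was not detectable at this depth.

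**Figure D4:**
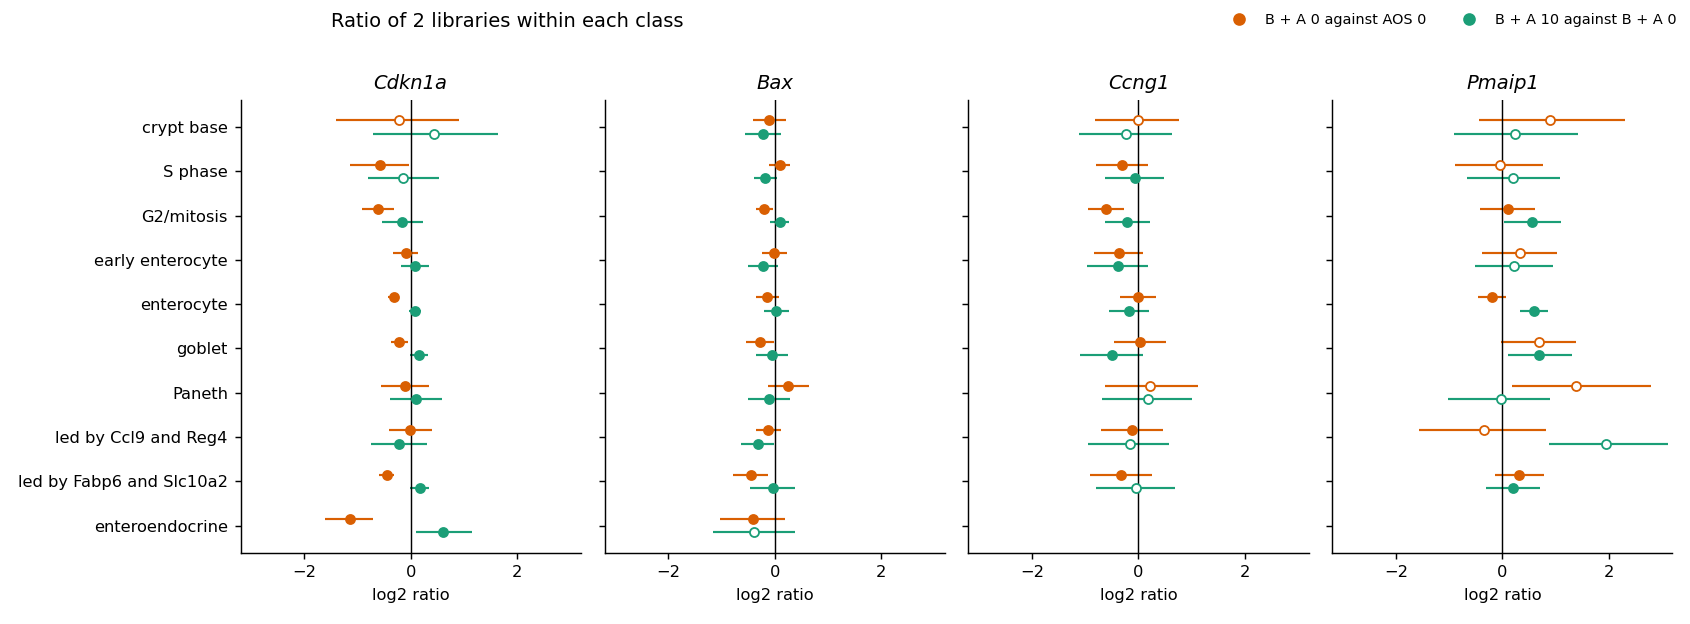
Log2 ratios of Cdkn1a, Bax, Ccng1 and Pmaip1 within 10 sets of cells for B + A 0 against AOS 0 and B + A 10 against B + A 0, with exact 95% counting intervals as bars and open symbols for fewer than 100 UMIs; ratios on fewer than 20 UMIs are left out. For B + A 0 against AOS 0 the Cdkn1a interval lay below 0 in S phase, G2 and mitosis, enterocytes, goblet cells, the cluster led by Fabp6 and Slc10a2 and enteroendocrine cells, and Pmaip1 was at 0.60 in enterocytes and 0.70 in goblet cells for B + A 10 against B + A 0.

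Within classes the summed level of the 10 genes was lower in B + A 0 than in AOS 0 in 3 of 7 classes by its interval. The log2 ratio was −0.24 (−0.35 to −0.13) in G2 and mitosis, −0.22 (−0.30 to −0.14) in enterocytes and −0.21 (−0.32 to −0.10) in goblet cells, while the all-gene medians there were −0.08, −0.04 and −0.03. It was −0.15 (−0.39 to 0.09) in the crypt base, −0.03 (−0.19 to 0.12) in S phase and −0.08 (−0.22 to 0.06) in early enterocytes. In Paneth cells it was 0.20 (−0.03 to 0.44), beside a median of 0.25 over all genes there. Without Cdkn1a and Bax the intervals of the first 3 classes held 0, with ratios of −0.17 (−0.36 to 0.02) in G2 and mitosis, −0.08 (−0.22 to 0.06) in enterocytes and −0.16 (−0.37 to 0.05) in goblet cells.

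In enterocytes, Cdkn1a carried most of that difference. For B + A 0 against AOS 0, 0 of 6 members with enough UMIs passed 1.5-fold in either direction, beside 1.73% of 6695 genes higher and 2.12% lower. The Cdkn1a ratio was −0.31 (−0.42 to −0.21) for B + A 0 to AOS 0 and 0.09 (−0.02 to 0.20) for B + A 10 to B + A 0. Pmaip1 and Zmat3 were the members that were at least 1.5-fold higher in B + A 10 than in B + A 0 there, 2 of 7 with enough UMIs beside 2.24% of 6390 genes, and 0 were lower, beside 0.876%. For B + A 10 against AOS 0, Zmat3 was the 1 of 7 that was higher, beside 3.72% of 6863 genes, and 0 were lower, beside 2.99%. Pmaip1 had a log2 ratio of 0.60 (0.34 to 0.86) to B + A 0 and 0.41 (0.19 to 0.64) to AOS 0. Zmat3 was at 5.87, 8.03 and 12.9 UMIs per 1000000 on 40, 36 and 68 UMIs, with ratios of 0.69 (0.08 to 1.31) to B + A 0 and 1.14 (0.55 to 1.74) to AOS 0.

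In goblet cells Pmaip1 was higher in B + A 10 than in B + A 0 and Trp53inp1 was lower in B + A 0 than in AOS 0. Pmaip1 was at 7.94 UMIs per 1000000 (5.43 to 11.2), 12.7 (9.17 to 17.2) and 20.6 (15.6 to 26.6), with a log2 ratio of 0.70 (0.10 to 1.30) for B + A 10 to B + A 0, the 1 member of 6 with enough UMIs that was at least 1.5-fold higher, beside 1.83% of 4219 genes, and 0 were lower, beside 1.49%. For B + A 0 against AOS 0, 0 of 5 members passed in either direction, beside 2.97% of 4749 genes higher and 1.94% lower, and for B + A 10 against AOS 0, 0 of 5, beside 5.30% of 4564 genes higher and 4.62% lower. Trp53inp1 had 50, 16 and 24 UMIs in goblet cells, or 12.4, 4.84 and 8.52 per 1000000, and so was lower in B + A 0 by its interval (log2 ratio −1.36, −2.27 to −0.52) on fewer than 100 UMIs. Cdkn1a in goblet cells had a ratio of −0.22 (−0.38 to −0.06).

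Among enteroendocrine cells, the hormone cells led by Gip, Nts and Cck, Cdkn1a and Gadd45a were higher in AOS 0 than in both busulfan libraries. These cells were looked at after the values were seen and numbered 66, 33 and 56. Cdkn1a there was at 494 UMIs per 1000000 (427 to 569), 223 (166 to 292) and 341 (270 to 424), and Gadd45a at 219 (175 to 270), 85.7 (52.3 to 132) and 59.6 (32.6 to 100). AOS 0 was highest for both, with log2 ratios of −1.15 (−1.62 to −0.70) and −1.35 (−2.13 to −0.64) for B + A 0 to AOS 0. The 3 richest cells held 37.2%, 45.0% and 50% of the Gadd45a UMIs, and without them the levels were 138, 47.1 and 29.8.

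A wider list of p53 regulators and targets was counted in the same way. It held 78 genes in 7 groups, of which 72 were in the table. Chek1, a kinase of the damage checkpoint, belongs to 2 of the groups. In B + A 0 against AOS 0, 1 of 64 genes with enough UMIs was higher and 0 were lower, beside 1.23% and 2.83% of all genes tested. The gene was Polh, which encodes the DNA polymerase that copies past damaged bases, with 43, 67 and 83 UMIs and a log2 ratio of 1.08 (0.50 to 1.66). Its level in B + A 10 was above both others, with a ratio of 1.56 (1.02 to 2.13) to AOS 0. Of genes with 100 to 200 UMIs, 4.55% were at least 1.5-fold higher in B + A 0 than in AOS 0.

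By group for B + A 0 against AOS 0, Trp53 and its regulators, 9 genes together, had a median log2 ratio of −0.13. The median was −0.14 for the 9 arrest targets, −0.19 for the 13 apoptosis targets and −0.04 for the 8 genes of repair and nucleotide supply. For the 11 genes of metabolism it was −0.16, and for the 10 genes that p21 represses through the DREAM complex −0.31. The 5 survival genes of the BCL2 family had −0.06, beside −0.18 for all genes. In B + A 10 against B + A 0, 0 of 63 were higher and Bid, which links death receptors to Bax, was lower (−0.65, −1.21 to −0.10), beside 2.23% and 0.819% of all genes.

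In B + A 10 against AOS 0, Polh was higher and 7 of 64 genes were lower, beside 3.29% and 3.79% of all genes. They were Ccnb1 (−0.63), Cdc25c (−0.90), Bub1 (−0.64) and Cdc20 (−0.71), which drive or guard mitosis, Atr (−0.75), a kinase of the damage checkpoint, Ddb2 (−0.68), a damage sensor of nucleotide excision repair, and Casp1 (−0.75), the inflammatory caspase. The shares of all genes depend on depth. Of genes with 100 to 200 UMIs, 10.6% were higher and 9.95% lower in this comparison. The share of lower genes was 7.22% at 200 to 400 UMIs and 3.68% at 400 to 1000. The excess of lower genes in the list over genes of like depth was not tested. The 4 mitotic genes belong to the p21-DREAM group of 10, whose median was −0.54, and cells of G2 and mitosis were 14.7%, 13.1% and 12.2% of the libraries. Within the crypt cells alone 2 of those 10, Cdc25c and Cdc20, were lower and the median was −0.47.

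**Figure D5:**
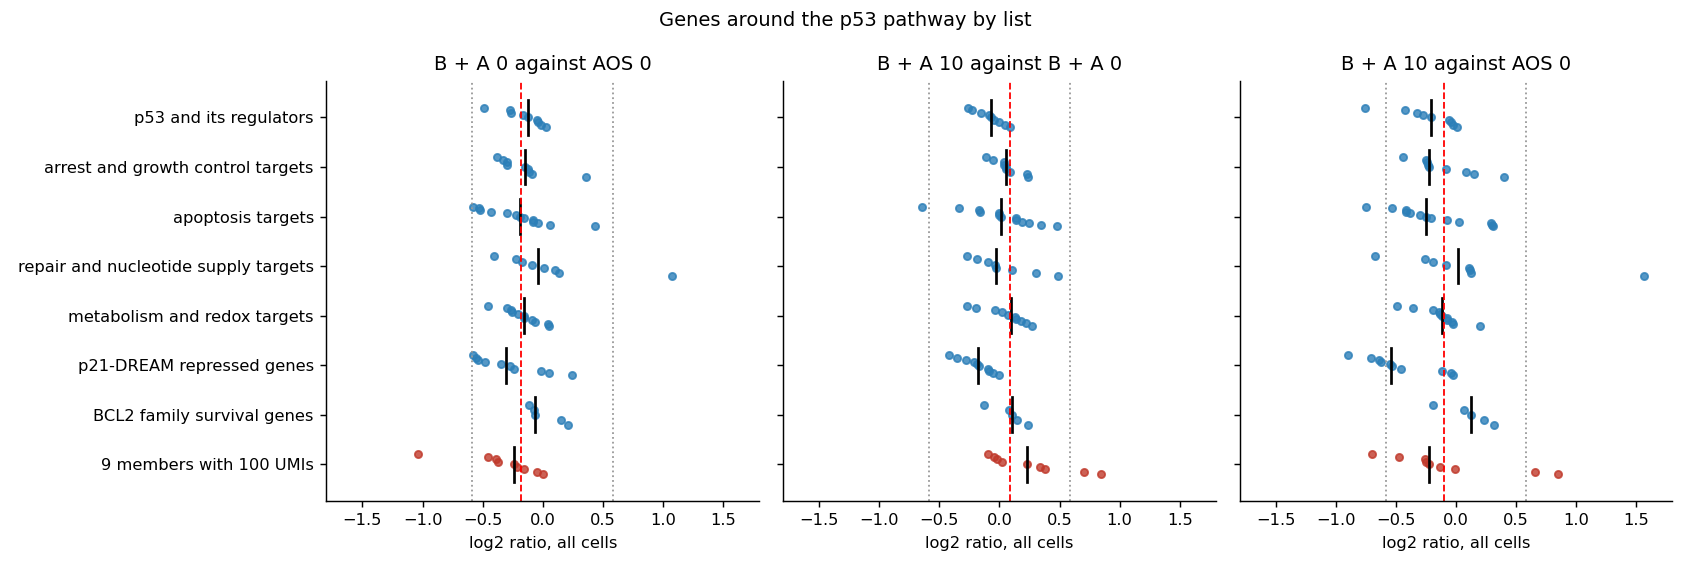
Log2 ratios of the genes of each wider p53 group and of the 9 members with at least 100 UMIs, 1 point per gene, with the group median as a black bar, the all-gene median as a dashed line and the fold of 1.5 as dotted lines. The p21-DREAM group had a median of −0.54 in B + A 10 against AOS 0, beside −0.10 for all genes.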

How the data were processed

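Single-cell libraries (10x Genomics 3′, chemistry version 2; 1 per group, cells of 6 mice) were processed by the authors with Cell Ranger 2.2.0 on mm10. They removed cells with fewer than 200 genes and genes in fewer than 3 cells. The deposited values are the natural log of 1 plus UMIs per 10000 of a cell. Here they were turned back into UMI counts: 100% of 24333763 values above 0 were whole within 0.01 UMI. Free RNA was not removed.

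Cells were clustered in Seurat 5.3.0 (R 4.3.3) on 2000 variable genes, libraries joined on 20 dimensions, 20 neighbours, resolution 0.8. The 20 clusters were named from fixed markers, and clusters without a clear list are called by leading genes. Doublets were kept: Scrublet's automatic threshold called 15 cells and so had not worked, and the 5% with the highest scores per library (633 cells) were left out as an alternative.

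UMIs were summed per library and class and divided by their total (Python 3.11.15, scipy 1.17.1, pandas 2.3.3). Levels have exact Poisson, shares exact binomial and log2 ratios exact conditional binomial 95% intervals. Ratios were read against a fold of 1.5 where both libraries held at least 100 UMIs together. Thinning drew 1000 UMIs per cell and left out 0 cells. Likeness between genes is Pearson's r of log2(UMIs per 1000000 + 10). Scripts were tested on simulated data. The median depth of 7371, 6407 and 3505 UMIs per cell sets the precision.

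The members and lists were chosen with earlier results of these data known. Named are the 10 members, Trp53, Mdm4, wider-list genes past 1.5-fold in all cells (at most 8 per comparison), the 3 genes most like each of the 3 most detected members, and class markers. Alternatives concern scaling, class mix, thresholds, thinning, doublets, cells with at least 500 genes and clustering. Gene positions are from GENCODE on GRCm38, promoters from RefSeq.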

Additional observations from a re-analysis of the deposited data

How the results depend on the processing

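No paired analysis was possible because each group has 1 library, and none could be left out. For B + A 0 against AOS 0, the number of members past 1.5-fold was 1, and became 0 in thinned cells and with at least 300 UMIs, 2 without a minimum and 4 at a lower limit of 0.32 on the log2 scale. For B + A 10 against B + A 0 it was 2, and became 1 with the class mix of AOS 0 and in thinned cells and 4 at that lower limit. For B + A 10 against AOS 0 it was 3, and became 1 in thinned cells, where fewer UMIs remain. The summed log2 ratio of B + A 0 to AOS 0, −0.32, became −0.21 without ribosomal, defensin and hemoglobin genes in the total, −0.14 with median-ratio scaling, −0.26 as a mean over cells and −0.20 with the class mix of AOS 0. For B + A 10 to B + A 0, 0.15 became 0.087, 0.063, 0.11 and 0.032 in the same order. For B + A 10 to AOS 0, −0.17 became −0.13 without those genes, −0.066 with median-ratio scaling and −0.13 in thinned cells. Within classes, B + A 10 to AOS 0 became −0.028 in enterocytes clustered without joining (−0.12 before) and −0.097 in S phase, G2 and mitosis joined as 1 cycling class (−0.22 before) with median-ratio scaling. The other 97 class values moved by less than their intervals. No cycling class could be formed at resolution 0.4 or without joining, so it has no value there. Of 240 single-gene values, 17 lay on the other side of 0 and 0 of these had passed 1.5-fold. Leaving out shared barcodes and scaling within classes were added after seeing the data.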
